A study of Xenopus tropicalis with 15 samples.

Results

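Solute carriers (slc genes) are membrane proteins that move ions, sugars, amino acids, nucleotides, metals and other small molecules across cell and organelle membranes, and they are numbered into families by sequence. Some carry their substrate down its gradient, others are exchangers, and many use the sodium gradient that the sodium pump sets up. A few work only as pairs of a heavy chain and a light chain. In an amphibian gastrula, which is fed by its own yolk, such carriers serve housekeeping tasks in every cell, and some are switched on in particular regions of the embryo.

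The slc genes described here are the rows of the table whose symbol starts with slc, a family number and a letter, and that had at least 10 counts in at least 5 of the 15 libraries. The table held 28206 genes, of which 312 carried such a symbol, and 194 of these passed. They belonged to 42 of the 47 families found. They were chosen by their counts, so that these genes are expressed at gastrula is not a result. Of the 118 symbols left out, 7 had no count in any library. For 4 of the 194 genes the symbol names an adaptor or regulator and not a carrier (slc4a1ap, slc7a6os, slc9a3r1 and slc9a3r2).

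The libraries were poly(A) RNA-seq of whole X. tropicalis embryos at stage 11 to 11.5, with 10 embryos per library and 5 libraries in each of 3 groups. Untreated embryos were compared with embryos that received lithium chloride (LiCl, 0.3 M, at the 32-cell stage), which stabilises β-catenin and dorsalises the embryo, or ultraviolet (UV) light for 2 min within 30 min of fertilisation, which blocks the cortical rotation and ventralises it. The study describes the 5 libraries of a group as coming from independent experiments. The study kept clutches in which sibling embryos showed the expected tailbud phenotype in high proportion, so the libraries stand for strongly affected clutches.

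Total counts ranged from 11002771 to 18455126 in untreated, from 11890416 to 18254396 in UV-treated and from 8412818 to 17737546 in LiCl-treated libraries. The slc genes took between 0.891% and 1.1% of them. Values are given as counts per 1000000 counts (CPM), and levels are compared between genes only as CPM per kilobase of exon. A gene is called between groups where the fitted fold change was at least 2 at a false discovery rate (FDR) of at most 1% in edgeR's quasi-likelihood test over all 14041 genes tested. Of the 194 genes, 193 were tested. slc5a1.1 was not.

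Marker genes of embryonic regions differed between the treatments. In LiCl-treated against UV-treated embryos, 5 of 6 organiser markers were called higher and 6 of 6 markers of ventral and posterior mesoderm were called lower. Of the markers of non-neural ectoderm, 4 of 5 were called lower, and 3 of 5 neural plate markers and 1 of 4 endoderm markers were called higher. From these same libraries the study had already named all the ventral markers as higher with UV. It had likewise named gsc, chrd, nog, foxa4, otx2 and the zic genes as higher with LiCl. The marker calls are therefore a description and not an independent test. The summed level of the organiser markers had a median of 2191 CPM in LiCl-treated, 1112 CPM in untreated and 538 CPM in UV-treated libraries, and that of the ventral markers 631, 1706 and 3272 CPM. The summed markers of non-neural ectoderm had medians of 488, 2120 and 2715 CPM in the same order. Neural plate sums had medians of 1642, 1609 and 806 CPM. Against untreated embryos, LiCl-treated embryos had 4 ventral and 3 non-neural ectoderm markers called lower and 1 endoderm marker called higher. No organiser or neural plate marker was called there, and no marker of any list between UV-treated and untreated embryos. The part of these shifts in the differences below was not tested. In whole embryos, fewer cells of a type and less RNA per cell cannot be told apart.

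The gastrula expressed slc genes over a wide range of levels, and a few carriers held much of the total. Averaged over the 15 libraries, the level per kilobase ran from 0.0807 to 424 CPM per kb with a median of 5.16 CPM per kb. The 5 highest genes held 34.2% of the summed level. The highest was slc25a5, the adenine nucleotide exchanger of the inner mitochondrial membrane, with 474 ± 70.6 CPM per kb in untreated embryos (mean ± SD, n = 5). It was followed by slc25a3, the mitochondrial phosphate carrier, with 243 ± 33.8 CPM per kb (n = 5). The next was slc20a1, a sodium-coupled phosphate carrier of the cell surface, with 250 ± 56.5 CPM per kb (n = 5) in untreated embryos but a lower mean over all libraries. The lactate carriers slc16a1 and slc16a3 had 176 ± 45.7 and 111 ± 27.2 CPM per kb in untreated embryos (n = 5 each). The untreated levels of slc25a3 and slc20a1 differed by less than the SD of either.

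The mitochondrial family slc25 was the largest by number and by level, with 33 expressed members and 32.6% of the summed level. The nucleotide-sugar carriers of family slc35 came next by number, with 15 members, ahead of the zinc importers of family slc39 with 10. In family slc35 the highest gene was slc35a3.2, at 85.1 CPM per kb over all libraries, and in family slc39 it was slc39a7, a zinc carrier of the endoplasmic reticulum, at 51.2 CPM per kb. In the zinc exporter family slc30 it was slc30a2, at 98.3 CPM per kb. The highest glucose carrier of family slc2 was slc2a2, at 32.6 CPM per kb. Among amino acid carriers, slc7a3, a carrier of cationic amino acids, reached 43.8 CPM per kb, and slc38a8, of the sodium-coupled neutral amino acid family, 45.5 CPM per kb. The organic cation family slc22 was led by slc22a4, at 36.9 CPM per kb, and family slc5 by slc5a8, at 21.3 CPM per kb. The highest genes of families slc9, slc4 and slc6 lay below these, but above the median of 5.16 CPM per kb over the slc genes. In family slc9 it was the adaptor slc9a3r1, with 18.1 CPM per kb. Among the bicarbonate carriers slc4 it was slc4a7, with 10.6 CPM per kb. Among the neurotransmitter and amino acid carriers slc6 it was slc6a14.1, with 5.96 CPM per kb. Family slc12 was led by slc12a3.2, which is described below.

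**Figure D1:**
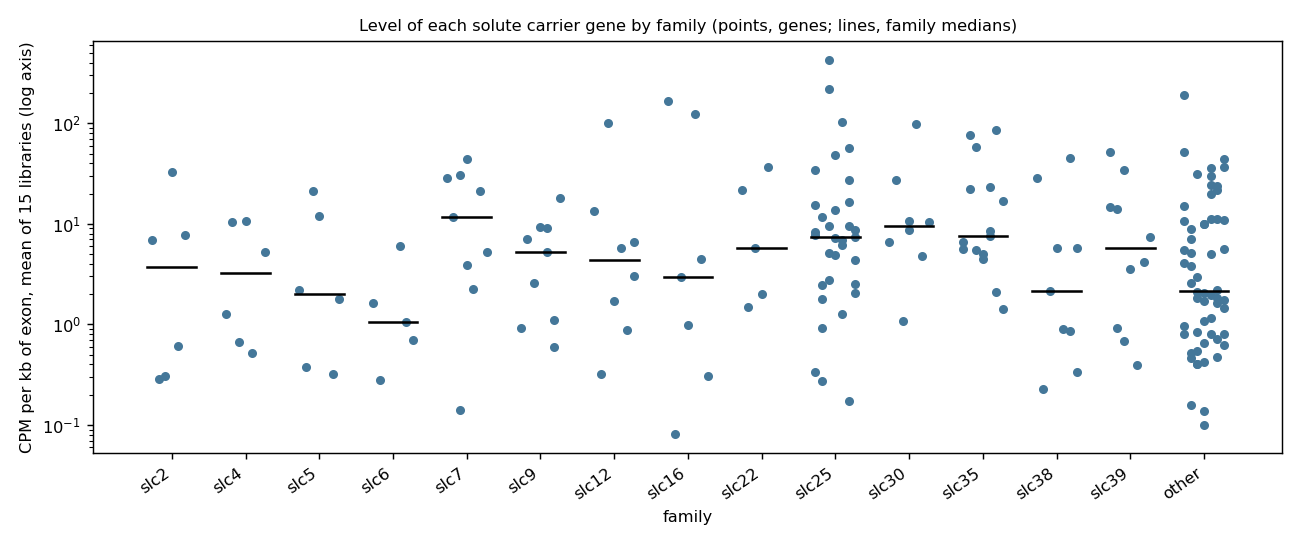
Each point is 1 slc gene, placed by its family (horizontal axis, the 14 families with at least 5 expressed members and all other families together) and by its mean level over the 15 libraries in CPM per kb of exon (vertical axis, logarithmic). Lines are family medians; slc25a5 stands highest at 424 CPM per kb.

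The genes nearest to the count filter were of low abundance. slc16a9, slc16a10, slc16a13, slc24a4 and slc5a6 had at least 10 counts in exactly 5 libraries, with 117 to 164 counts in all 15 libraries together. Just outside, with exactly 4 such libraries, lay slc1a4, slc22a20, slc25a42, slc26a9, slc32a1, slc34a3, slc45a1 and slc6a3, with 70 to 126 counts together. slc16a9 was the single gene that passed through libraries of 1 group only, the LiCl-treated embryos, so its difference between groups was fixed in part by the filter.

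The 4 dorsal carriers were chosen by their higher counts in LiCl- than in UV-treated embryos, so their values are a description and no test of them is given. They do different work. slc12a3.2 bears the name of the sodium-chloride cotransporter of the distal kidney tubule in mammals. slc13a3 takes up dicarboxylates with sodium, slc38a3 carries glutamine, and slc3a1 is the heavy chain of the exchanger for cystine and dibasic amino acids.

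slc12a3.2 lies on scaffold 1 of assembly v7.1 (64779994 to 64794905, plus strand, 28 exons). The LiCl-treated libraries 1 to 5 held 991, 823, 716, 493 and 693 CPM of slc12a3.2, against 375, 319, 262, 353 and 253 CPM in untreated and 276, 307, 279, 201 and 229 CPM in UV-treated libraries. Every LiCl-treated library stood above every other library, and untreated and UV-treated libraries overlapped. The fitted log2 difference of slc12a3.2 was 1.52 against UV-treated and 1.25 against untreated embryos. At 101 CPM per kb it was by far the most abundant of the 4. The separate locus named slc12a3, on scaffold 4, had at most 3.31 CPM in any library.

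slc38a3 (scaffold 6, 136566906 to 136580578, minus strand) had the second pattern without overlap. Its LiCl-treated libraries held 105, 90.4, 79.6, 67.9 and 78.0 CPM, its untreated libraries 27.3, 20.5, 23.9, 38 and 27.2 CPM and its UV-treated libraries 24.2, 18.7, 21.2, 15.2 and 14.3 CPM. For slc38a3 the log2 difference was 2.17 against UV-treated and 1.62 against untreated embryos.

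For slc3a1 (scaffold 5, 109150149 to 109156994, minus strand) 1 library stood apart. The LiCl-treated libraries held 244, 233, 230, 79.9 and 216 CPM, and the low value, in replicate 4, lay within the untreated range. Untreated libraries had 74.6, 119, 92.5, 68.4 and 79.5 CPM, and UV-treated libraries 22.1, 69.9, 48.5, 50.3 and 64.2 CPM. For slc3a1 the log2 difference was 1.98 against UV-treated and 1.21 against untreated embryos.

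slc13a3 (scaffold 10, 21423560 to 21442159, plus strand) was the least abundant per kilobase, at 11 CPM per kb. LiCl-treated libraries held 71.9, 121, 69.0, 61.2 and 22.5 CPM of slc13a3, untreated libraries 18.7, 17.6, 26.5, 37 and 13 CPM, and UV-treated libraries 14.2, 22.3, 18.5, 11.7 and 17.2 CPM. Its lowest LiCl-treated library, replicate 5, lay just above the highest UV-treated library and within the untreated range. For slc13a3 the log2 difference was 2.04 against UV-treated and 1.61 against untreated embryos.

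**Figure D2:**
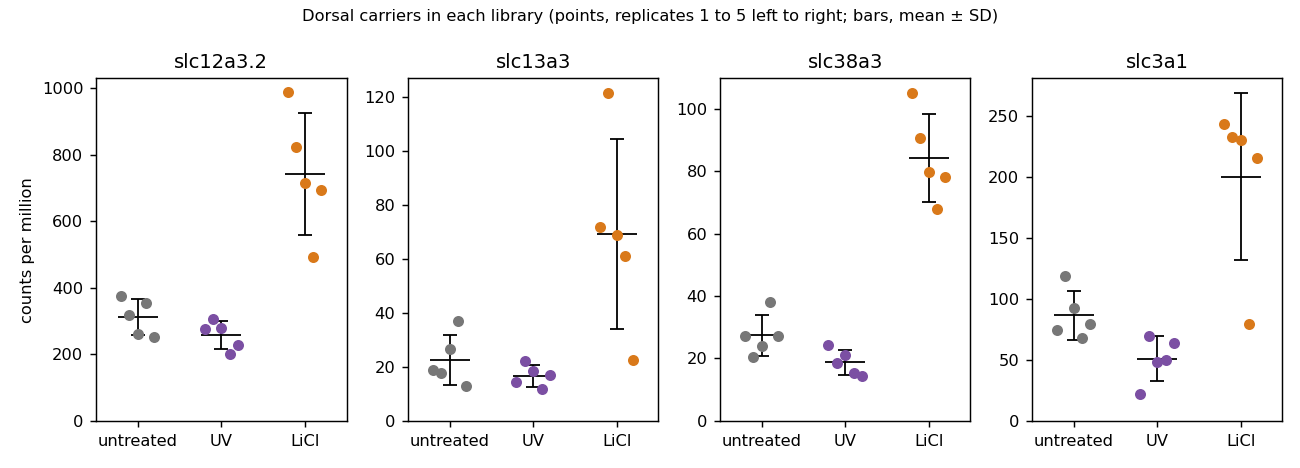
CPM (vertical axes, linear from 0) of the 4 dorsal carriers in every library of the 3 groups; points are replicates 1 to 5 from left to right and bars the mean ± SD. LiCl-treated embryos stand above all others for slc12a3.2 and slc38a3, whereas LiCl replicate 4 of slc3a1, at 79.9 CPM, and LiCl replicate 5 of slc13a3, at 22.5 CPM, fall within the untreated range.

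LiCl-treated and UV-treated embryos were compared next over the other slc genes, to ask which of them differed between dorsalised and ventralised embryos. Of the 189 tested besides the dorsal carriers, 19 were called, 11 higher and 8 lower in LiCl-treated embryos. This is 10.1%, beside 6.10% of all genes tested (3.55% higher and 2.55% lower). The 11 higher genes include slc16a9, whose difference was fixed in part by the count filter. The higher genes included carriers of chloride and other ions, amino acids, monocarboxylates, nucleosides and zinc. The lower genes included carriers of thiamine, organic cations, large neutral amino acids, nucleotides, acetyl-CoA and nucleotide sugars. The substrates did not divide cleanly. A carrier of large neutral amino acids, slc43a2, and a member of the nucleotide-sugar family, slc35f2, were among the higher genes. Over all 193 the median log2 difference was 0.03, as it was over all genes tested, and 118 of the 193 lay within 1.5-fold. The ranges of the 5 libraries did not overlap for 31 of the 189, beside 12.4% of all genes tested.

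By substrate, the summed level of the 34 amino acid and peptide carriers was 501 CPM per kb in LiCl-treated, 372 in untreated and 291 CPM per kb in UV-treated embryos, and that of the 31 inorganic ion carriers was 591, 490 and 343 CPM per kb. Classes go by family number, so the first sum also holds slc7a6os and the second slc4a1ap, slc9a3r1 and slc9a3r2, which are not carriers. slc3a1 and slc38a3 are part of the first sum and slc12a3.2 of the second, and all were chosen for their level with LiCl. Without them the sums were 354, 314 and 255 CPM per kb over 32 amino acid and peptide carriers and 419, 418 and 283 CPM per kb over 30 inorganic ion carriers, in the same order. Besides the dorsal carriers, 2 amino acid carriers and 3 ion carriers were called higher. In each class 1 gene was called lower, slc7a5 and the adaptor slc9a3r2. The 33 mitochondrial carriers summed to 912 CPM per kb in LiCl-treated, 1164 in untreated and 1134 CPM per kb in UV-treated embryos, with 1 gene called lower and none higher. Family slc20, nearly all of it slc20a1, gave 196, 250 and 125 CPM per kb of the ion sums in LiCl-treated, untreated and UV-treated embryos. Most of the fall of the ion sum from untreated to UV-treated embryos therefore lay in 1 gene. Likewise, slc25a5 alone averaged 424 CPM per kb over the 15 libraries and weighs heavily in the mitochondrial sums. No sum was tested.

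**Figure D3:**
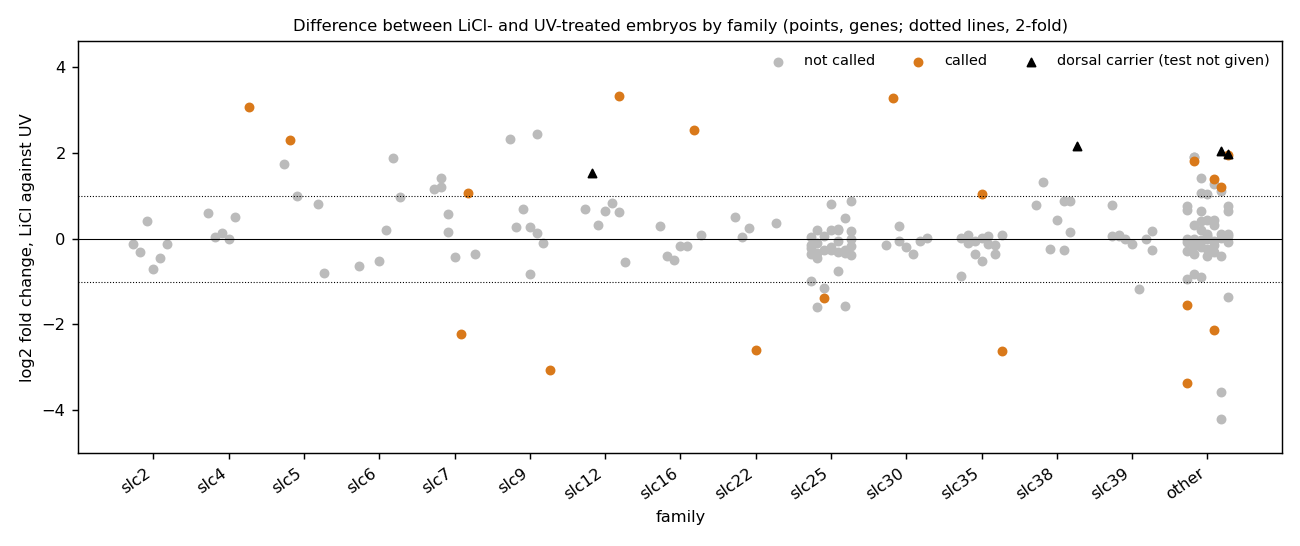
log2 fold change between LiCl- and UV-treated embryos (vertical axis; dotted lines, 2-fold) of each slc gene tested, by family (horizontal axis). Orange points are the 19 genes called, 11 above and 8 below 0; grey points were not called; black triangles are the 4 dorsal carriers, which were part of the fit and for which no test is given.

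Among ion carriers, slc12a1 and slc4a1 were higher in LiCl-treated embryos. slc12a1 is the sodium-potassium-chloride cotransporter of the loop of Henle in mammals. Its LiCl-treated libraries held 70.7, 53.9, 50.4, 16.5 and 69.7 CPM, its untreated libraries 15.6, 4.24, 5.06, 7.40 and 22.2 CPM and its UV-treated libraries 2.89, 3.53, 2.78, 4.72 and 12.3 CPM. LiCl-treated libraries stood above all UV-treated libraries, and replicate 4 lay within the untreated range. For slc12a1 the log2 difference from UV-treated embryos was 3.33 ± 0.57 (SE; FDR = 0.000945). From untreated embryos it was 2.26, with an FDR of 0.0123 that missed the threshold, whereas with the replicate number as a block it was 2.35 with an FDR of 0.00502.

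slc4a1, the anion exchanger of red blood cells and of acid-secreting kidney cells, was separated from both other groups. Its LiCl-treated libraries held 29.6, 105, 73.0, 19.9 and 34.1 CPM, against 6.13 to 11.4 CPM (median 6.78 CPM) in untreated and 5.03 to 6.81 CPM (median 6.41 CPM) in UV-treated libraries. No range overlapped with LiCl. For slc4a1 the log2 difference was 3.08 ± 0.39 from UV-treated (FDR = 0.000119) and 2.77 ± 0.38 from untreated embryos (FDR = 0.00059).

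slc24a6, a sodium-calcium exchanger that in mammals sits in the inner mitochondrial membrane, differed less and from UV-treated embryos only by the threshold used. LiCl-treated libraries held 61.3, 57.9, 58.9, 48 and 32.0 CPM of slc24a6, untreated libraries 32.0, 31.2, 32.7, 29.1 and 30.7 CPM and UV-treated libraries 21.4, 15.0, 20.1, 24.7 and 17.4 CPM. UV-treated libraries stood below all others. For slc24a6 the log2 difference between LiCl- and UV-treated embryos was 1.39 ± 0.18 (FDR = 0.000123). Against untreated embryos it was 0.73 ± 0.17 (FDR = 0.0126).

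slc30a8, the zinc exporter known from the insulin granules of mammalian beta cells, was scarce and uneven. Its LiCl-treated libraries held 3.97, 8.29, 22.5, 2.09 and 1.66 CPM, its untreated libraries 0.210 to 2.54 CPM (median 1.12 CPM) and its UV-treated libraries 0.240 to 1.30 CPM (median 0.963 CPM). For slc30a8 the log2 difference from UV-treated embryos was 3.27 ± 0.75 (FDR = 0.00778). The call was lost without any 1 of 11 libraries, that is all but untreated replicates 4 and 5 and LiCl replicates 4 and 5, with FDRs of 0.0101 to 0.0281, and without LiCl replicate 3 the log2 difference was 2.31.

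Among amino acid carriers besides the dorsal ones, slc43a2 and slc7a6 were higher in LiCl- than in UV-treated embryos. slc43a2, a sodium-independent carrier of large neutral amino acids, had 20.6, 7.06, 18.9, 11.2 and 15.3 CPM in LiCl-treated, 12.1, 9.77, 9.55, 7.46 and 7.99 CPM in untreated and 1.37, 2.65, 6.05, 4.30 and 4.51 CPM in UV-treated libraries. UV-treated libraries lay below all untreated and LiCl-treated libraries. For slc43a2 the log2 difference between LiCl- and UV-treated embryos was 1.95 ± 0.36 (FDR = 0.00164).

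slc7a6 is a light chain for exchange of cationic and neutral amino acids. It had 14 to 27.7 CPM (median 18.7 CPM) in LiCl-treated, 12.6 to 18.8 CPM (median 14 CPM) in untreated and 5.91 to 11.8 CPM (median 10.9 CPM) in UV-treated libraries, and again UV-treated embryos stood below the other groups. For slc7a6 the log2 difference was 1.06 ± 0.24 (FDR = 0.00631), close to the limit of 2-fold, and the call was lost without any 1 UV-treated library or without LiCl replicate 2 or 3 (log2 differences of 0.92 to 1.14, FDRs of 0.01 to 0.0214). Another carrier, slc38a5, which takes neutral amino acids with sodium, was called against untreated embryos only. Its LiCl-treated libraries had 14.3, 12, 8.28, 4.27 and 13 CPM, and its untreated libraries 1.89 to 5.21 CPM (median 3.85 CPM). Replicate 4 with LiCl lay within the untreated range. For slc38a5 the log2 difference was 1.56 ± 0.34 (FDR = 0.00709). The call was lost without any 1 of 9 libraries (all untreated replicates but 2, all LiCl replicates but 4, and UV replicate 2), with FDRs of 0.0103 to 0.0208. With the replicate number as a block, over the 10 libraries compared, slc38a5 was called, at 1.55 (FDR = 0.000593). Against UV-treated embryos its log2 difference was 1.31 (FDR = 0.0142).

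Of the carriers of monocarboxylates, slc5a8, which takes up lactate and short-chain fatty acids with sodium, was the most abundant of those called. LiCl-treated libraries held 172, 180, 178, 59.9 and 181 CPM of slc5a8, untreated libraries 53.2, 78.8, 43.4, 33 and 139 CPM and UV-treated libraries 17.7, 55.7, 28.5, 17.5 and 36.9 CPM. LiCl replicate 4 was close to the highest UV-treated library, and the other 4 stood above every untreated library. For slc5a8 the log2 difference was 2.30 ± 0.43 from UV-treated embryos (FDR = 0.00192). From untreated embryos it was 1.15 (FDR = 0.0812), and with the replicate number as a block 1.23 (FDR = 0.00728), which was called.

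slc16a9, of the monocarboxylate family, was among the rarest genes counted here, at 14 to 41 counts in LiCl-treated, 2 to 8 in untreated and 1 to 8 counts in UV-treated libraries. In CPM these were 1.42 to 2.27 (median 1.85), 0.105 to 0.749 (median 0.24) and 0.0802 to 0.428 (median 0.347). For slc16a9 the log2 difference was 2.54 from UV-treated and 2.5 from untreated embryos. As it passed the count filter through its LiCl-treated libraries alone, these values are a description, although the gene is among those counted as called. The main lactate carriers of the family did not follow. slc16a1 had log2 differences of 0.08 from UV-treated and −0.07 from untreated embryos and slc16a3 of −0.17 and 0.13, and neither was called (FDRs of 0.54 to 0.842).

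slc29a2, an equilibrative nucleoside carrier, was among the more abundant genes called. Its LiCl-treated libraries held 186, 198, 174, 252 and 185 CPM, its untreated libraries 93.3, 94.8, 113, 148 and 120 CPM and its UV-treated libraries 81.2, 92.9, 107, 76.4 and 73.3 CPM. LiCl-treated libraries stood above all others. For slc29a2 the log2 difference was 1.21 ± 0.15 from UV-treated embryos (FDR = 0.000113). From untreated embryos it was 0.80 ± 0.15 (FDR = 0.00313), under 2-fold.

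slc35f2, placed in the nucleotide-sugar family by its number, had a similar pattern, with 132, 198, 186, 152 and 118 CPM in LiCl-treated, 80.4 to 117 CPM (median 85.3 CPM) in untreated and 66.2 to 83.2 CPM (median 74.6 CPM) in UV-treated libraries. LiCl-treated libraries did not overlap with either group. For slc35f2 the log2 difference from UV-treated embryos was 1.05 ± 0.15 (FDR = 0.000265) and fell just under 2-fold without UV replicate 5 or LiCl replicates 2 or 3 (1.00, 0.95 and 0.98). slc23a2, a sodium-coupled carrier of ascorbate, was low, with 10.3, 10.5, 11, 2.98 and 4.59 CPM in LiCl-treated, 0.788 to 4.36 CPM (median 1.98 CPM) in untreated and 1.92 to 2.40 CPM (median 2.30 CPM) in UV-treated libraries. Its log2 difference from UV-treated embryos was 1.81 ± 0.43 (FDR = 0.00881), lost without any 1 of 11 libraries (all but untreated replicates 4 and 5 and LiCl replicates 4 and 5) with FDRs of 0.0108 to 0.0254. From untreated embryos slc23a2 was not called (1.85, FDR = 0.0102), but with the block it was (1.87, FDR = 0.00848).

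**Figure D4:**
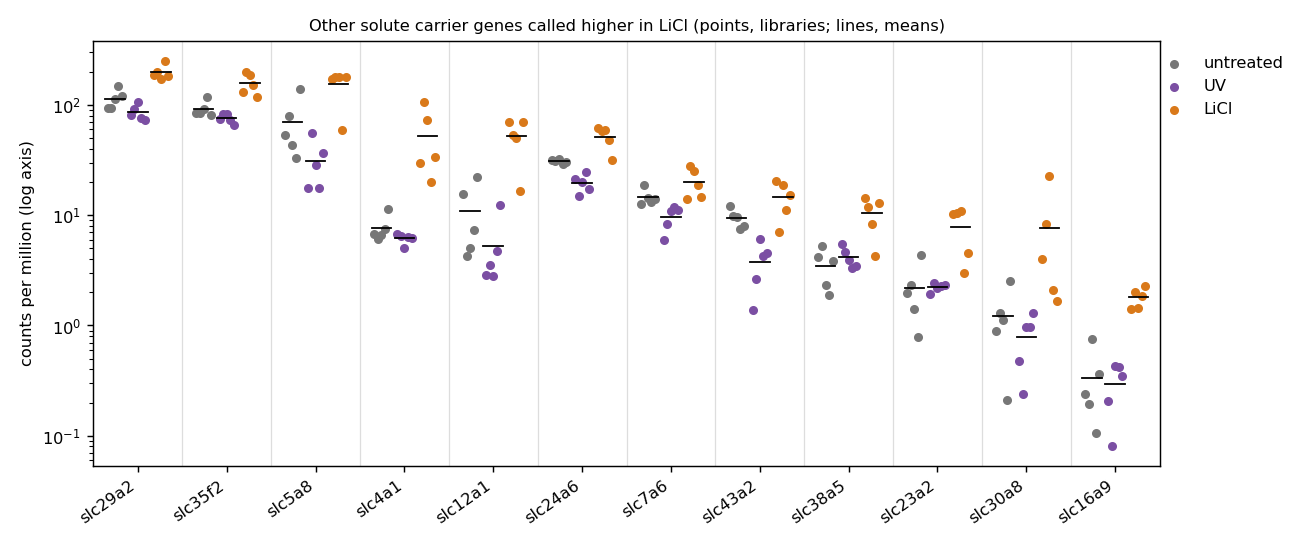
CPM in every library (vertical axis, logarithmic) of the 12 other slc genes called higher in LiCl-treated embryos against UV-treated or untreated embryos, ordered by their LiCl mean. Points are libraries, replicates 1 to 5 from left to right within a group, and lines are means; the fourth LiCl-treated library lies low for slc5a8 (59.9 CPM) and slc12a1 (16.5 CPM), as it does for slc4a1 (19.9 CPM).

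The genes lower in LiCl-treated embryos included 2 of the more abundant amino acid and organic cation carriers. slc7a5, the light chain of the exchanger for large neutral amino acids such as leucine, had 39.1, 31.6, 30.5, 69.2 and 39.7 CPM in LiCl-treated, 188, 111, 184, 194 and 77.6 CPM in untreated and 245, 188, 240, 164 and 143 CPM in UV-treated libraries. All LiCl-treated libraries lay below all others, replicate 4 closest to them. For slc7a5 the log2 difference was −2.22 ± 0.28 from UV-treated (FDR = 0.000123) and −1.84 ± 0.28 from untreated embryos (FDR = 0.000987).

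slc22a4, a carrier of organic cations and zwitterions such as ergothioneine, fell by a similar amount. LiCl-treated libraries held 44.3, 9.08, 24, 30.5 and 57.0 CPM of slc22a4, untreated libraries 163, 152, 164, 115 and 211 CPM and UV-treated libraries 122, 171, 165, 261 and 282 CPM. The groups did not overlap with LiCl. Its log2 difference was −2.60 ± 0.38 from UV-treated (FDR = 0.000306) and −2.28 ± 0.37 from untreated embryos (FDR = 0.00146).

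slc17a9, which loads nucleotides into vesicles in mammals, was ordered over all 3 groups. UV-treated libraries held 38.4, 29.6, 30.9, 46.2 and 49.2 CPM, untreated libraries 22, 17.6, 21.7, 21.5 and 22.1 CPM and LiCl-treated libraries 6.21, 7.28, 9.48, 8.54 and 12.8 CPM. No library of any group overlapped with another group. For slc17a9 the log2 difference was −2.13 ± 0.21 from UV-treated (FDR = 1.57e-05) and −1.24 ± 0.20 from untreated embryos (FDR = 0.00144), and UV-treated embryos were not called against untreated ones (FDR = 0.0565).

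Vitamin and cofactor carriers included slc19a2, which takes up thiamine and showed one of the greatest drops. Its LiCl-treated libraries had 0.712, 0.112, 0.565, 0.322 and 1.60 CPM, its untreated libraries 6.24, 8.15, 4.40, 2.1 and 17.5 CPM and its UV-treated libraries 4.26, 6.17, 4.33, 7.62 and 14 CPM. All LiCl-treated libraries lay below all others. For slc19a2 the log2 difference was −3.36 ± 0.63 from UV-treated (FDR = 0.00195) and −3.44 ± 0.63 from untreated embryos (FDR = 0.00294). slc33a1, which brings acetyl-CoA into the endoplasmic reticulum, had 11.5, 7.73, 12.1, 8.38 and 18.3 CPM in LiCl-treated, 16 to 49.2 CPM (median 37.3 CPM) in untreated and 25.4 to 49.1 CPM (median 31.3 CPM) in UV-treated libraries. Its LiCl-treated libraries overlapped with the lowest untreated library, replicate 4. For slc33a1 the log2 difference was −1.56 ± 0.31 from UV-treated (FDR = 0.00265) and −1.52 ± 0.31 from untreated embryos (FDR = 0.00505). The latter call was lost without untreated replicate 1, 2 or 5 or LiCl replicate 1, 2 or 3 (FDRs of 0.0116 to 0.0174). With the replicate number as a block, over the 10 libraries compared, slc33a1 was called against untreated embryos, at −1.48 (FDR = 0.00078).

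slc35d2, a carrier of UDP-sugars into the Golgi, was also lower with LiCl. LiCl-treated libraries held 3.46, 1.79, 2.64, 5.88 and 5.30 CPM of slc35d2, untreated libraries 21.3, 21.0, 14.3, 10.1 and 21.4 CPM and UV-treated libraries 18.4, 23.7, 20.1, 26.2 and 29.5 CPM. Its log2 difference was −2.61 ± 0.31 from UV-treated (FDR = 8.18e-05) and −2.20 ± 0.31 from untreated embryos (FDR = 0.000639). The exons of slc35d2 overlap those of fam175a on the other strand, and as the library kit does not mark strand, reads of the 2 genes cannot be told apart where they overlap. The same holds for slc25a30, a member of the mitochondrial family, and the abundant tpt1. slc25a30 had 203, 137, 163, 81.2 and 138 CPM in LiCl-treated, 206 to 379 CPM (median 321 CPM) in untreated and 309 to 506 CPM (median 327 CPM) in UV-treated libraries. For slc25a30 the log2 difference was −1.39 ± 0.22 from UV-treated (FDR = 0.000612) and −1.12 ± 0.22 from untreated embryos (FDR = 0.00465). The latter was lost without untreated replicate 1, 2, 3 or 5 or LiCl replicate 2 (FDRs up to 0.0154) and fell to −0.97 without LiCl replicate 4. With the replicate number as a block, over the 10 libraries compared, slc25a30 was called against untreated embryos, at −1.15 (FDR = 6.5e-05).

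slc9a3r2 is a scaffold protein that binds the sodium-proton exchanger slc9a3, not a carrier. It was scarce, with 1.92, 1.36, 1.55, 7.50 and 4.86 CPM in UV-treated, 0.13 to 1.31 CPM (median 0.54 CPM) in untreated and 0.0628 to 0.672 CPM (median 0.407 CPM) in LiCl-treated libraries. UV-treated libraries stood above all others. For slc9a3r2 the log2 difference between LiCl- and UV-treated embryos was −3.06 ± 0.66 (FDR = 0.00514), and the call was lost without UV replicate 4 or 5 or LiCl replicate 1, 2 or 3 (FDRs of 0.0103 to 0.0178). Its relative slc9a3r1 did not follow (−0.09, FDR = 0.831).

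**Figure D5:**
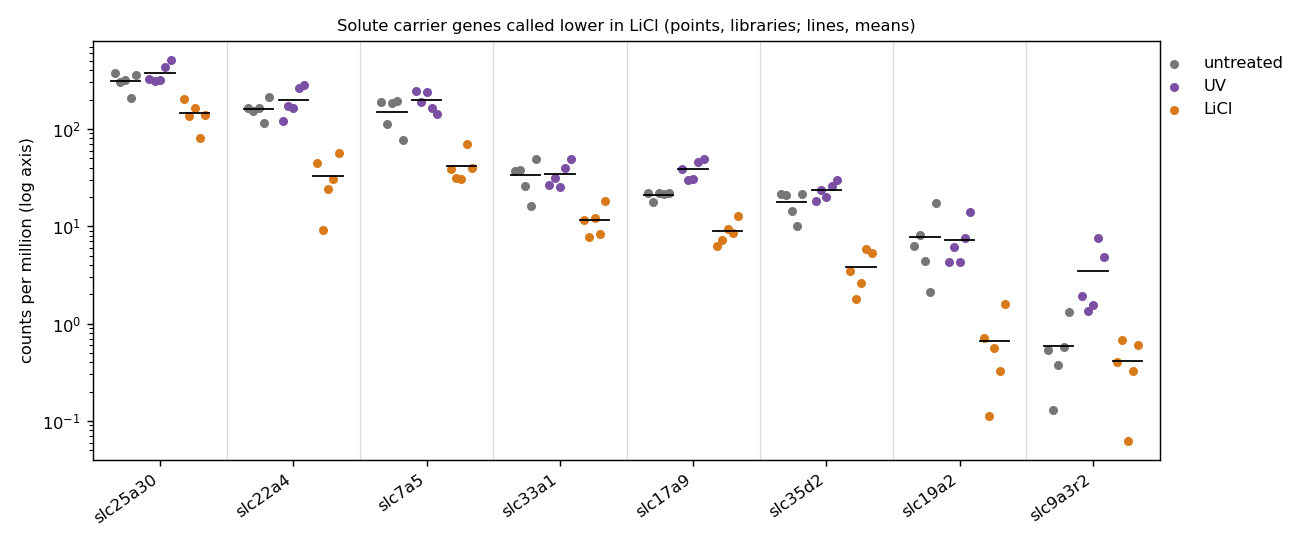
CPM in every library (vertical axis, logarithmic) of the 8 slc genes called lower in LiCl-treated embryos, ordered by their untreated mean. Points are libraries and lines are means; for slc9a3r2 the UV-treated libraries, at 1.36 to 7.50 CPM, stand apart from the other groups, and for slc17a9 the 3 groups are all separate.

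Against untreated embryos, 10 of the 189 tested genes other than the dorsal carriers were called in LiCl-treated embryos, 3 higher (slc4a1, slc16a9 and slc38a5) and 7 lower (slc19a2, slc22a4, slc35d2, slc7a5, slc33a1, slc17a9 and slc25a30). This is 5.29%, beside 3.67% of all genes tested (2.25% higher and 1.42% lower). The 3 higher genes include slc16a9, whose difference was fixed in part by the count filter. Ranges did not overlap for 16 of the 189, beside 8.36%. All but slc38a5 were also called against UV-treated embryos, and these comparisons share the LiCl-treated libraries. LiCl-treated and untreated libraries of the same replicate number deviated together, and the numbers were taken to pair these samples. The fit that gave the 10 calls did not use this pairing. LiCl replicate 3 correlated slightly more with an untreated library of another number (0.371) than with that of its own (0.338). The pairing is less sure there. With the number as a block, over the 10 libraries compared, 19 genes of 180 tested were called, 8 higher and 11 lower. This is 10.6%, beside 6.69% of all genes tested in that fit (4.02% higher and 2.67% lower). They included all 10 called without it. Besides slc12a1, slc5a8 and slc23a2, the additional genes were slc9a5, a sodium-proton exchanger (2.05, FDR = 0.00108), slc41a1, a magnesium carrier (1.31, FDR = 0.00714), slc25a28, a mitochondrial iron carrier (−1.08, FDR = 0.000372), slc25a22, a mitochondrial glutamate carrier (−1.31, FDR = 0.00237), slc18a2, the vesicular monoamine carrier (−3.86, FDR = 0.00108), and slc3a2, described below. The level of slc18a2 was near 0 in LiCl-treated embryos, at 0.0452 CPM per kb against 0.874 CPM per kb in untreated ones. At that level slc18a2 passed the count filter mainly through untreated and UV-treated libraries, so its difference was fixed in part by the filter. The size of its difference is also uncertain, and without the block its FDR was 0.0316. With the block fitted over all 15 libraries, slc25a22 (−1.30, FDR = 0.0497) and slc3a2 (FDR = 0.141) were not called. Without untreated replicate 1 the count without a block was 6 of 190, beside 2.03% of all genes tested. At an FDR of 5% with no minimum fold, 45 of the 189 genes were called between LiCl- and UV-treated embryos, 31 between LiCl-treated and untreated and 0 between UV-treated and untreated embryos, beside 15.2%, 13.5% and 0.584% of all genes tested.

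UV-treated and untreated embryos were compared to ask whether ventralised embryos differ in slc genes. No gene of the 189 was called by edgeR, beside 0.0712% of all genes tested. At an unadjusted p under 0.05 there were 26, beside 11.5% of all genes tested, and DESeq2 called 1 gene, slc9a3r2, higher in UV-treated embryos. Ranges did not overlap for 9 of the 189, 2 higher and 7 lower in UV-treated embryos, beside 3.22% of all genes tested (1.03% higher and 2.19% lower). The most abundant of these was slc20a1, with 443, 460, 369, 595 and 452 CPM in UV-treated and 1204, 1092, 830, 696 and 827 CPM in untreated libraries. The LiCl-treated libraries spread widely, at 964, 878, 968, 286 and 537 CPM, and the lowest of them lay below every UV-treated library. The exons of slc20a1 overlap those of a gene on the other strand. Both members of family slc43 were among the 7 lower ones, slc43a1 with 52.9 ± 10.4 CPM in UV-treated and 92.7 ± 28 CPM in untreated embryos, and slc43a2 with 3.78 ± 1.8 and 9.37 ± 1.8 CPM (n = 5 in each group). The others were slc7a6, slc17a5, slc24a6 and slc25a24.

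The subunit partners of the heteromeric exchangers were looked up by name, after their values were known. slc7a9, the light chain of the dorsal heavy chain slc3a1, had 11.8 ± 9.24 CPM in LiCl-treated, 12.9 ± 10.3 CPM in untreated and 10.5 ± 7.35 CPM in UV-treated embryos (n = 5 each), and its log2 difference between LiCl- and UV-treated embryos was 0.16 ± 0.68 (FDR = 0.925). slc3a2, the heavy chain of slc7a5, slc7a6, slc7a7 and slc7a8, had 9.77, 16.5, 13.5, 1.37 and 7.40 CPM in LiCl-treated, 26.8, 44.7, 19, 3.47 and 38.6 CPM in untreated and 2.89, 6.33, 2.68, 8.77 and 8.07 CPM in UV-treated libraries. Untreated replicate 4 and LiCl replicate 4 were the lowest of their groups. Between LiCl-treated and untreated embryos the log2 difference of slc3a2 was −1.45 ± 0.62 (FDR = 0.138), and with the replicate number as a block −1.43 ± 0.24 (FDR = 0.0034), which was called over the 10 libraries compared but not over all 15 (−1.38 ± 0.62, FDR = 0.141). Among its light chains, slc7a5 was lower and slc7a6 higher in LiCl- than in UV-treated embryos, and slc7a7 (1.15 ± 0.49, FDR = 0.133) and slc7a8 (1.42 ± 0.42, FDR = 0.029) were not called.

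Other proteins that act on these carriers were taken from gene lists. None of the 6 tested subunits of sodium and proton pumps was called in any comparison. The nearest was atp1b3, a subunit of the sodium pump, whose log2 difference between LiCl- and UV-treated embryos was 0.96 ± 0.16 (FDR = 0.000945), under 2-fold. Its LiCl-treated libraries nevertheless all stood above its UV-treated libraries. None of the 5 tested genes of the WNK kinase pathway, which regulates cation-chloride cotransporters, was called, and neither were the 2 tested chaperone partners, bsg among them. Of all genes tested, 6.10% were called between LiCl- and UV-treated, 3.67% between LiCl-treated and untreated and 0.0712% between UV-treated and untreated embryos. Among so few genes 0 calls is near this background and does not show that they were unchanged.

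By family, the calls were few. None of the 10 zinc importers of family slc39, the 6 glucose carriers of family slc2 and the 5 neurotransmitter and amino acid carriers of family slc6 was called by edgeR in any of the 3 comparisons. At the 6.10% of all genes called between LiCl- and UV-treated embryos, 0 calls among so few genes is near the background, and nothing particular to these families can be read from it. DESeq2 called slc6a15 higher in LiCl- than in UV-treated embryos (log2 difference 1.89, FDR = 0.0048). In these families the log2 differences between LiCl- and UV-treated embryos lay between −1.16 and 0.79, between −0.71 and 0.40 and between −0.64 and 1.89. In the mitochondrial family slc25, 1 of 33 was called, slc25a30, and the family's median log2 difference was −0.22. The 2 most abundant genes of all, slc25a5 and slc25a3, had log2 differences of −0.45 ± 0.13 (FDR = 0.0227) and −0.33 ± 0.13 (FDR = 0.101). Within family slc12, slc12a2, the widely expressed relative of slc12a1, went the other way from it without being called, with 86.5 ± 17 CPM in LiCl-treated, 118 ± 7.91 CPM in untreated and 126 ± 22.1 CPM in UV-treated embryos (n = 5 each; −0.55 ± 0.14, FDR = 0.0172 against UV-treated embryos).

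Replicate 4 lay at the edge of its group in several of these genes, in LiCl-treated and in untreated embryos, and so did replicate 5. LiCl replicate 4 was the lowest of the 5 LiCl-treated libraries in 8 of the 16 genes higher with LiCl, dorsal carriers included, and the highest in 2 of the 8 genes lower with LiCl. Untreated replicate 4 was the lowest untreated library in 8 of the same 16 and in 5 of the 8. Among the 8 lower genes, replicate 5 was the highest of its group in 6 for untreated, 6 for UV-treated and 4 for LiCl-treated embryos. Such positions were not counted over all genes. LiCl replicate 4 stood apart over the whole table too. Its chi-square per degree of freedom with the other LiCl-treated libraries was 70.7 to 99.2, against 15.1 to 47.6 for pairs without it. In LiCl replicate 4 the organiser markers, 2456 CPM, lay within the 2013 to 2482 CPM of the group. Within that sum, however, gsc had 569 CPM, against 127 to 240 CPM in the other LiCl-treated libraries. The summed neural plate markers, 1732 CPM, lay within 1255 to 1927 CPM. The summed endoderm markers, 1080 CPM, were the lowest of 1080 to 1863 CPM. Also lowest were the ventral markers, 424 CPM of 424 to 1077 CPM, and the non-neural ectoderm markers, 410 CPM of 410 to 937 CPM. Without LiCl replicate 4, 27 of 190 genes other than the dorsal carriers were called between LiCl- and UV-treated embryos (14.2%), beside 7.92% of all genes tested.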

How the data were processed

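RNA-seq libraries of X. tropicalis gastrulae were deposited by the authors as whole-number counts of reads per gene, without normalisation. Paired-end reads had been aligned with TopHat2 (the submitters' processing notes name versions 2.0.10 and 2.1.1) to gene models v7.2 of assembly v7.1 and assigned to genes by HTSeq-count (intersection-nonempty). The strand setting is not given in the sources used here. The TruSeq kit does not mark strand, and 19 of the 194 genes overlap exons of a gene on the other strand, whose reads cannot be told apart from theirs. Exon lengths were taken from the gene models that the authors deposited, a table of another unit, genome positions.

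Counts were analysed with edgeR 4.0.16 in R 4.3.3: filterByExpr by group (14041 of 28206 genes), TMM normalisation, a robust quasi-likelihood fit to all 15 libraries with group as the only term, and Benjamini-Hochberg adjustment over all genes tested. Alternatives included DESeq2 1.42.0. CPM use TMM library sizes, and levels per kb the union of the exons of all models of a locus. SE is the size of the log2 fold change divided by the square root of F. No library was dropped. The closest replicates, UV 4 and 5, differed beyond sampling noise and were counted apart. Their chi-square per degree of freedom was 4.34, against 16.2 to 50.4 for the other pairs of UV-treated libraries. Whether these 2 libraries share a clutch cannot be told from the counts. If they do, the UV-treated group holds fewer than 5 independent clutches.

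Replicate numbers come from the sample titles. Deviations from group means correlated between LiCl-treated and untreated libraries of the same number (0.338 to 0.731). LiCl replicate 3 correlated more, however, with an untreated library of another number (0.371). In replicate 4 of the UV-treated group the deviations did not correlate (−0.120 with LiCl and −0.254 with untreated). Only LiCl-treated and untreated libraries were therefore taken as paired. The main fit of this comparison did not use the pairing, so its calls and FDRs are unpaired. Fits with the number as a block are given beside it.

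The genes named are the 4 dorsal carriers, every other gene called in any comparison, the 5 highest per kb, the highest of each family with 5 or more expressed members, slc35d2, and the genes at the edge of the count filter. The genes and lists were chosen with earlier results of these data known. Genes named beside these were chosen after their values were seen.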

Additional observations from a re-analysis of the deposited data

Results flagged for a closer look

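In 72 groups of 5 libraries, from the genes called and the dorsal carriers, 7 held a library set apart from the other 4 by more than Dixon's critical value of 0.71. About 1 in 20 such groups is set apart by chance. Replicate 4 of the LiCl-treated embryos accounted for 3: slc3a1 had 79.9 CPM there against 216 to 244 CPM in the others, slc5a8 had 59.9 CPM against 172 to 181 CPM, and slc7a5 had 69.2 CPM against 30.5 to 39.7 CPM. In untreated embryos, replicate 2 was low for slc17a9, with 17.6 CPM against 21.5 to 22.1 CPM, and high for slc7a6, with 18.8 CPM against 12.6 to 14.3 CPM. Replicate 5 was high for slc4a1 in untreated embryos, with 11.4 CPM against 6.13 to 7.51 CPM, and for slc12a1 in UV-treated embryos, with 12.3 CPM against 2.78 to 4.72 CPM.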

How the results depend on the processing

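No called difference changed direction under any alternative. Between LiCl- and UV-treated embryos 19 genes other than the dorsal carriers were called, slc16a9 among them. There were 45 at an FDR of 5% with no minimum fold, 32 with DESeq2, 6 when tested against a 2-fold change with glmTreat, and between 14 and 27 without 1 library. Of the 19 calls, 14 were kept without any 1 library and 6 under every alternative. The shares of all genes called under the first 3 of these settings were 15.2%, 9.48% and 1.76%. Without 1 library they ran from 4.28% to 7.92%. Between LiCl-treated and untreated embryos the 10 calls became 31, 19 and 1 under the same 3 settings, 6 with only the 10 libraries compared, and between 6 and 13 without 1 library. Of all genes 13.5%, 6.88%, 0.335% and 1.82% were then called under the first 4, and from 1.86% to 4.91% without 1 library. Here 6 of the 10 calls were kept without any 1 library and 1 under every alternative. With the replicate number as a block, the LiCl-treated against untreated count was 18 over all 15 libraries and 19 over the 10 compared, beside 5.26% and 6.69% of all genes. Between LiCl- and UV-treated embryos, whose replicate 4 did not deviate together, the block gave 24 and 14 calls, beside 7.74% and 4.52% of all genes, and not every library correlated best with its own number. Between UV-treated and untreated embryos it gave 0. Between UV-treated and untreated embryos DESeq2 called 1 gene where edgeR called 0, and no other setting called any. Genes near 1 CPM, such as slc16a9 and slc9a3r2, rest on few counts. Levels per kb depend on the length used, and with coding length slc25a5 stood at 1228 CPM per kb.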

Other observations

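Among the 118 slc symbols left out by the count filter, 3 were called when no filter on low counts was applied. In that fit 3.57% of all genes were called between LiCl- and UV-treated embryos and 2.16% between LiCl-treated and untreated embryos. These shares are over all genes with any count, whereas the 118 symbols had low counts, so the count of 3 cannot be judged against them. The genes are given as a description. slc39a4, a zinc importer, had 6, 23, 50, 5 and 3 counts in LiCl-treated libraries, 0 to 2 in UV-treated and 0 in each untreated library (FDR = 0.00683 against UV-treated and 0.00312 against untreated embryos in edgeR). slc6a3, the dopamine carrier (FDR = 0.00469 between LiCl- and UV-treated embryos), had 4, 33, 30, 11 and 11 counts in LiCl-treated libraries, 0 in each UV-treated library and 0 to 8 in untreated libraries. slc22a20, of the organic ion family (FDR = 0.00819 in the same comparison), had 0 or 1 count in LiCl-treated libraries, 2 to 15 in UV-treated and 1 to 17 in untreated libraries. All 3 lie near the limit of detection, and no fold is given because groups were at or near 0 counts.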
